A study of Mus musculus with 12 samples.

Results

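The genes described here are the Wnt ligands, their receptors and co-receptors, the secreted proteins that raise or lower Wnt signalling, and β-catenin with its nuclear partners and feedback genes. They were taken by name from the deposited normalized table: symbols of the Wnt, Fzd, Sfrp, Dkk, Rspo and Lgr families, plus Lrp4, Lrp5, Lrp6, Frzb, Wif1, Axin2, Lef1, Tcf7, Notum, Nkd1, Nkd2, Znrf3, Rnf43 and Ctnnb1. This gave 45 of the 17408 genes in that table. All 45 passed the filter on low counts of the test used here. A further 13 genes with a matching name, among them Wnt3a, Wnt7b, Fzd10 and Sfrp5, lay outside the table with a mean of at most 9 counts per library and were not followed. RNA came from cortical bone of the femoral shaft after the marrow had been spun out, and each library was a pool of 2 male mice. Mice of 12 weeks were Cat +/+ (wild type) or Cat −/− (knockout of the catalase gene on both copies). Catalase degrades hydrogen peroxide in peroxisomes. Gavage was repeated on 4 days with ethanol (3, 3, 4 and 4.5 g per kg of body weight, from a 31.5% solution by volume) or with the same volume of phosphate-buffered saline (PBS), and bones were taken 6 hours after the last dose. The 4 groups of 3 libraries were Cat −/− with PBS (libraries 1 to 3), Cat −/− with ethanol (4 to 6), wild type with PBS (7 to 9) and wild type with ethanol (10 to 12). All mice were kept on regular chow. The origin of the knockout allele, and whether pools of a group came from separate cages or days, were not stated in the sources at hand, so p-values measure the spread between pools.

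Wnt proteins are secreted lipid-modified signals that bind Frizzled receptors together with the co-receptors Lrp5 or Lrp6. In the canonical branch this stops the destruction of β-catenin, the product of Ctnnb1, which then enters the nucleus and acts with the transcription factors Tcf7 and Lef1. R-spondins bind Lgr receptors and keep the membrane ligases Znrf3 and Rnf43 from removing Frizzleds, so that cells stay sensitive to Wnt. Sfrp proteins, Frzb and Wif1 bind Wnts outside the cell, Dkk1 blocks Lrp5 and Lrp6, and Notum removes the lipid from Wnts. In bone, canonical Wnt signalling in osteoblasts and osteocytes is known to favour bone formation, and osteocytes release inhibitors such as Dkk1 and sclerostin.

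Library totals ran from 19950222 to 28789308 counts. Cat, the targeted gene, was at 66.0 to 74.2 CPM (counts scaled to the library total and TMM factor) in the knockout libraries and 128 to 175 CPM in the wild-type libraries, so the levels separated as labelled. Bone cell markers were present: of the osteoblast list (12 genes) and the osteocyte list (8 genes, 1 of them the Wnt inhibitor Dkk1) no marker was at 0 in any library. Libraries 8, 9 and 12 held 2.82%, 3.14% and 3.35% of their counts in 12 skeletal muscle genes, against 0.123% to 1.76% in the others. Libraries 6 (knockout with ethanol) and 12 (wild type with ethanol) had the lowest summed level of the osteoblast list, 12351 and 13169 CPM, and library 6 held the lowest value of 16 of the 45 Wnt genes. Where leaving out libraries 8, 9 and 12, or 6 and 12, ended a call of a single gene, the value without them stands beside it. Without libraries 8, 9 and 12, library 7 is the only wild-type PBS library left, beside libraries 10 and 11 with ethanol.

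After ethanol, Rspo2, a secreted R-spondin that potentiates Wnt signalling, fell 2.77-fold in wild type and 3.57-fold in the knockout, and in both genotypes no ethanol library reached the level of any PBS library. Ctnnb1 fell 1.22-fold in the knockout. Its wild-type value, 1.17-fold lower, did not pass the test used here, but was called by another, DESeq2. Averaged over the genotypes, 6 of the 45 genes fell and 0 rose: Rspo2, Ctnnb1, Lgr4, Fzd5, Frzb and Fzd9. Loss of catalase changed none of the 45 past the test under either gavage, and no ethanol effect differed between genotypes past the test. The test was edgeR's over all 18161 genes, called at an adjusted p under 0.05. In wild type 1 of the 45 fell (2.22%) and 0 rose, against 0.705% and 0.556% of all genes. In the knockout 2 fell (4.44%) and 0 rose, against 0.903% and 0.964%. For the averaged effect 6 of the 45 fell (13.3%), against 5.81% of all genes, and 0 rose, against 5.02%. These are counts of few genes, and no more is read from the shares.

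The levels set the background for these differences. On the scale of CPM per kb of exon, which allows genes to be compared, the mean over the 12 libraries was highest for Ctnnb1 at 92.9, ranging from 80.1 to 106. Next came 2 secreted inhibitors, Wif1 at 56.9 (38.0 to 69.0) and Dkk1 at 31.3 (13.2 to 61.3). The co-receptor Lrp4, which binds sclerostin, was at 12.2, Sfrp4 at 11.1 and the signalling co-receptor Lrp5 at 8.81. Lrp6 was lower at 4.95. The ranges of Wif1 and Dkk1 overlapped, but within each of the 12 libraries Wif1 was the higher. The range of Lrp4 (9.49 to 15.7) overlapped that of Sfrp4 (7.78 to 13.6), and Lrp4 was the higher in 8 of 12 libraries. Wnt5b led the 10 ligands at 7.54 CPM per kb and made up 38.5% of their summed level, followed by Wnt10b, a ligand of the canonical branch, at 4.45 (22.7%). Wnt4 was at 2.74 and Wnt1 at 1.46, while the other 6 ligands lay between 0.173 (Wnt10a) and 0.950 (Wnt16). Of the 9 Frizzleds, Fzd7 was highest at 6.62, with Fzd4 at 5.597 and Fzd5 at 4.90, and their ranges overlapped. Fzd3 was the lowest of the 45 at 0.0886. Among R-spondins and their receptors Lgr4 took 46.7% of the summed level at 4.83. Lgr6 was at 2.01, Rspo3 at 1.70 and Rspo2 at 0.952. Znrf3 was at 0.990 and Rnf43 at 0.557. Spread across libraries also differed by gene: the coefficient of variation of CPM was 66.6% for Wnt9a, 62.6% for Rspo2, 55.8% for Wnt11, 55.5% for Fzd9 and 53.3% for Wnt10a, against 6.70% for Lrp6, 8.62% for Lrp5 and 9.82% for Ctnnb1.

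**Figure D1:**
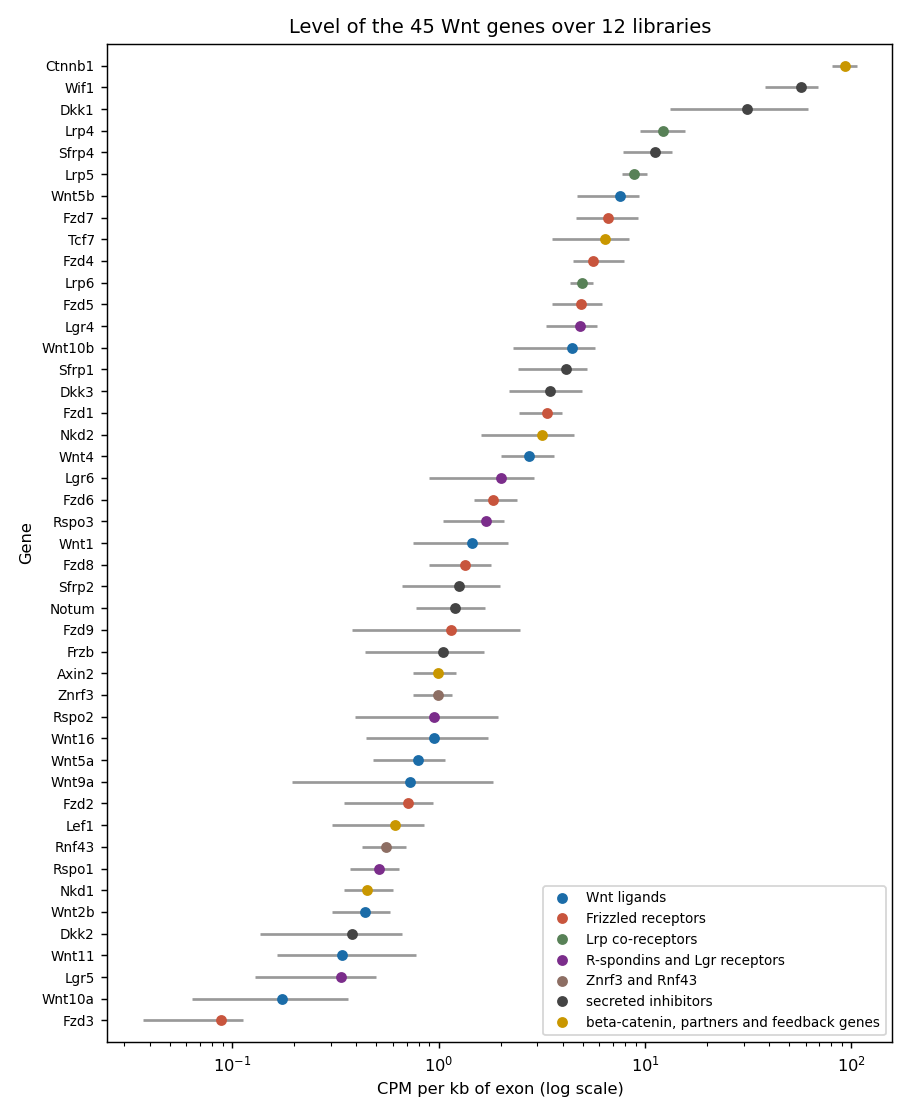
Level of each of the 45 Wnt genes in CPM per kb of exon on a log scale, with the point at the mean over 12 libraries, the grey line from the lowest to the highest library and the colour giving the role. Ctnnb1 (92.9), Wif1 (56.9) and Dkk1 (31.3) sit above the rest, and Fzd3 (0.0886) is the lowest.

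The start regions of the genes that fell in the averaged test are given here as sequence. Whether these sequences bear on the fall was not tested. RefSeq promoter entries on GRCm38.p6 matched 28 of the 45 genes with 37 windows, and 5 of the 6 fallen genes are among them. Rspo2 had no entry. Each sequence below is the 250 bases before an annotated start, 5′ to 3′ on the strand of the gene. Capitals mark the GC box bound by SP and KLF factors (GGGCGG or its reverse complement CCGCCC) and the core bound by TCF and LEF factors (CTTTGA or TCAAAG).
Ctnnb1, chr9:120933150-120933399, + strand: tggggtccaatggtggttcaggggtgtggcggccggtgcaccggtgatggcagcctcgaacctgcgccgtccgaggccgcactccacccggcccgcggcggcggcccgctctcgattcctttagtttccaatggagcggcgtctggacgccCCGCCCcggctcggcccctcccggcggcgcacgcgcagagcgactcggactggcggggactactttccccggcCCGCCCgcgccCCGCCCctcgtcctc
Fzd5, chr1:64737751-64738000, − strand: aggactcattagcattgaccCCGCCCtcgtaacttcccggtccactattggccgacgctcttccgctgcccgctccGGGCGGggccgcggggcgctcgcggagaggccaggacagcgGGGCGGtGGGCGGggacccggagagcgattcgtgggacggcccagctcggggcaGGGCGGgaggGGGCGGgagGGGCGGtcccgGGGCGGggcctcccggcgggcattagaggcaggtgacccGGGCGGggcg
Fzd9, chr5:135251048-135251297, − strand: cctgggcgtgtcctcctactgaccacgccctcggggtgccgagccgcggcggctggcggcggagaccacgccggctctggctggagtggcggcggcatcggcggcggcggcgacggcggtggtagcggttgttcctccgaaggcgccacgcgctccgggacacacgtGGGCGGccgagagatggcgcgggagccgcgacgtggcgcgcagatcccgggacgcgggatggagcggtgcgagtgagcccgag
Frzb, chr2:80447397-80447646, − strand: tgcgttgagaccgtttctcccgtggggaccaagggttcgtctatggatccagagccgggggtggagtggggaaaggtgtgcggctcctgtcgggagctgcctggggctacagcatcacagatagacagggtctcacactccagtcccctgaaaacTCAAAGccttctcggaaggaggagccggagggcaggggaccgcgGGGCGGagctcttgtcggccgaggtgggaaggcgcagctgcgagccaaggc
Lgr4, chr2:109917397-109917646, + strand: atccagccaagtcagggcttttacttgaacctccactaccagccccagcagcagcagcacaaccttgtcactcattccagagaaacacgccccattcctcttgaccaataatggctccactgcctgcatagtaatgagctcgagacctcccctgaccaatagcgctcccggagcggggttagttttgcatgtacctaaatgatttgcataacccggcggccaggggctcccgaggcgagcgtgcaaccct
Ctnnb1 has another, overlapping window (chr9:120933328-120933577, 2 GC boxes and 0 TCF/LEF cores) that is not printed. Of the printed windows that of Fzd5 held 9 GC boxes, that of Ctnnb1 3, those of Fzd9 and Frzb 1 each and that of Lgr4 0. A TCF/LEF core stood 95 bases before the start in the Frzb window, and there was none in the other 4. GC content ran from 55.6% (Lgr4) to 76.4% (Fzd5 and Fzd9). Over all 37 windows of the Wnt genes, 62.2% held a GC box, against 32.7% of all 32851 windows of the same length, both strands searched. The TCF/LEF core was in 16.2% of the Wnt windows and 13.8% of all, the RUNX core TGTGGT in 2.70% and 14.0%, and the glucocorticoid receptor half-site AGAACA in 16.2% and 16.1%. The cAMP response element TGACGTCA was in 0 of the Wnt windows and 1.55% of all. Windows of 1 gene can overlap, and these matches are a description of letters.

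R-spondins and their receptors held the largest difference. Rspo2 (ENSMUSG00000051920, chromosome 15, 43020794 to 43170826, GRCm38, − strand) was at 7.61, 3.28 and 8.10 CPM in wild type with PBS and at 2.12, 2.72 and 2.001 CPM in wild type with ethanol. In the knockout it was at 9.95, 7.68 and 7.81 CPM with PBS and at 2.28, 2.69 and 2.15 CPM with ethanol. The 6 ethanol libraries lay close together, below all 6 PBS libraries, and library 8 was the lowest of the PBS libraries. In wild type the mean fell from 6.33 ± 2.65 CPM to 2.28 ± 0.387 CPM after ethanol (SD, n = 3 each). In the knockout it fell from 8.48 ± 1.27 CPM to 2.37 ± 0.280 CPM. The log2 fold change was −1.47 in wild type (SE 0.29, adjusted p = 0.03947) and −1.84 in the knockout (SE 0.29, adjusted p = 0.01131). Averaged over the genotypes it was −1.65 (SE 0.20, adjusted p = 0.001023). The difference between the genotypes, −0.36 (SE 0.40), had a 95% interval of −1.25 to 0.52, so a stronger or a weaker effect in the knockout is within error. Counts behind these values ran from 38 to 275 per library. The wild-type call was lost in 13 of 23 alternatives, among them limma-voom (adjusted p = 0.09279) and a fit of the 2 wild-type groups alone (adjusted p = 0.2798), with the log2 fold change between −1.77 and −1.25. Leaving out any 1 library other than 6 or 8 ended it, with adjusted p-values from 0.05975 to 0.1128. The knockout call was lost without library 1 (adjusted p = 0.05835) or library 6 (adjusted p = 0.06898). Without libraries 6 and 12 both calls were lost, with an adjusted p of 0.1046 in wild type and 0.05697 in the knockout. The averaged call was kept in each of its 22 alternatives, with an adjusted p of at most 0.008031.

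**Figure D2:**
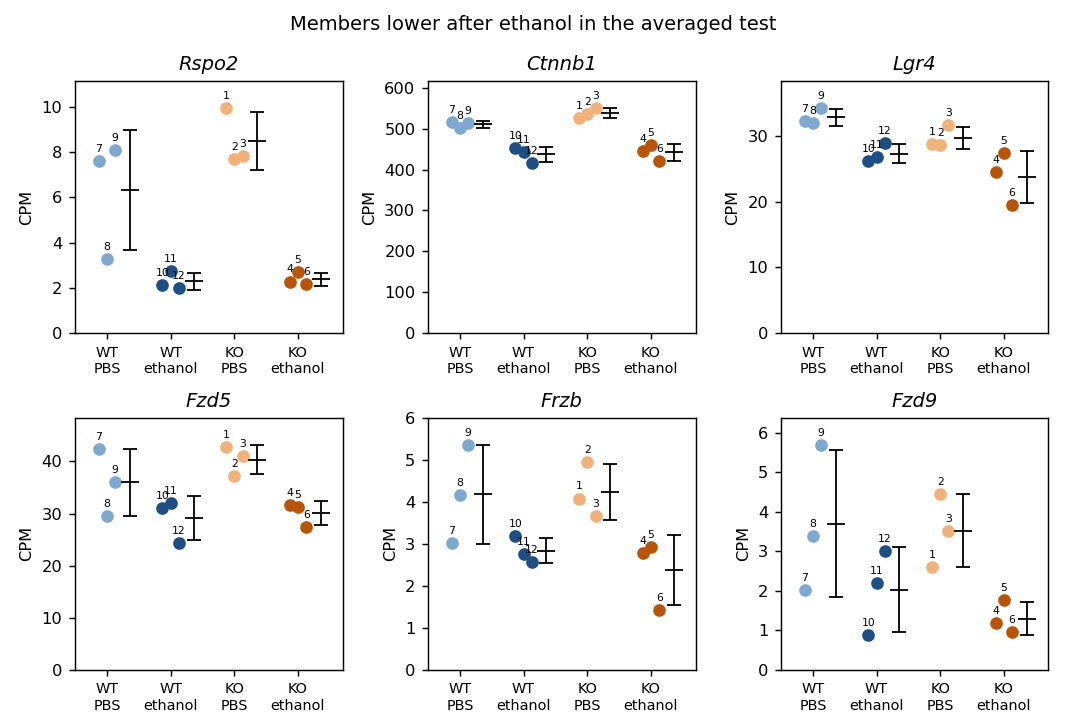
CPM of the 6 genes that fell in the averaged ethanol test, each panel on its own linear axis from 0, with 1 numbered point per library and a bar beside each group for the mean ± SD (n = 3). Rspo2 shows every ethanol library between 2.001 and 2.72 CPM, below all PBS libraries, while Fzd5, Frzb and Fzd9 overlap between the wild-type groups.

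Lgr4 encodes a receptor for R-spondins and was the most abundant of the 3 Lgr genes. It was at 32.3, 32.0 and 34.3 CPM in wild type with PBS and at 26.2, 26.8 and 28.9 CPM with ethanol. Knockout libraries held it at 28.9, 28.7 and 31.6 CPM with PBS and at 24.5, 27.4 and 19.5 CPM with ethanol. Within each genotype the ethanol libraries lay below the PBS libraries, and library 6 was the lowest of all 12. The log2 fold change was −0.27 in wild type (SE 0.11, adjusted p = 0.2438) and −0.32 in the knockout (SE 0.11, adjusted p = 0.1506), and neither passed. Averaged, the log2 fold change of Lgr4 was −0.29 (SE 0.076, adjusted p = 0.03033), a call kept in 14 of 22 alternatives. It was lost without library 1, 2, 3, 4, 9, 10 or 11 (adjusted p at most 0.08269) and without libraries 8, 9 and 12 together (adjusted p = 0.08954). The stem cell receptor Lgr5 was at 0.335 and Lgr6 at 2.01 CPM per kb. Lgr5 had a log2 difference of −0.34 in wild type (SE 0.35) and −0.79 in the knockout (SE 0.34), and Lgr6 of −0.55 (SE 0.26) and −0.45 (SE 0.25), with adjusted p-values from 0.2769 to 0.6939. The knockout value of Lgr5 was called with the 2 groups alone (adjusted p = 0.01598) and without libraries 8, 9 and 12 (adjusted p = 0.01494). Rspo1 and Rspo3 did not pass in any comparison. In this group of 6 genes 5 were below 0 in each genotype, with a median log2 difference of −0.30 in wild type and −0.39 in the knockout. Over all genes the median was −0.018 and 0.000.

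Znrf3 and Rnf43, the membrane ligases that R-spondins hold back, did not pass in any comparison. Znrf3 was at 7.25, 7.41 and 8.29 CPM in wild type with PBS and at 8.39, 7.61 and 5.95 CPM with ethanol. Its knockout libraries were at 7.96, 8.96 and 9.05 CPM with PBS and at 6.59, 9.12 and 7.16 CPM with ethanol, so the groups overlapped in both genotypes. The log2 difference was −0.062 (SE 0.15) and −0.18 (SE 0.15), with 95% intervals of −0.40 to 0.27 and −0.52 to 0.15.

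Among the 10 Wnt ligands 0 were called in any of the 7 edgeR tests, and DESeq2 called 0 of them with ethanol. DESeq2 gave an adjusted p to 44 of the 45 members there, and the remaining member could not be called. Without library 8, edgeR called Wnt10a in the average. At an unadjusted p under 0.05 stood Wnt10a in wild type and Wnt5a in the knockout. Wnt5b, a ligand mostly tied to β-catenin-independent signalling, was at 23.6, 19.5 and 24.9 CPM in wild type with PBS and at 17.0, 18.1 and 23.9 CPM with ethanol. The knockout libraries were at 16.6, 20.4 and 19.1 CPM with PBS and at 21.9, 22.9 and 12.4 CPM with ethanol, with library 6 the lowest. The log2 difference was −0.21 in wild type (95% interval −0.68 to 0.27) and 0.028 in the knockout (−0.44 to 0.50). Wnt5a, its close relative, was at 4.99, 5.57 and 7.78 CPM in wild type with PBS and at 5.16, 7.28 and 5.95 CPM with ethanol. In the knockout it was at 6.98, 8.44 and 7.36 CPM with PBS and at 6.28, 5.04 and 3.76 CPM with ethanol, where the groups did not overlap. Its knockout difference of −0.59 (SE 0.21) had an unadjusted p of 0.01693 and an adjusted p of 0.1804. Wnt10a, at 3 to 26 counts per library, is too thinly counted for its value of −1.16 in wild type (SE 0.52) and −0.86 in the knockout (SE 0.44) to be firm. The median over the ligands was −0.21 in wild type and −0.031 in the knockout. Wnt10b and Wnt1 lie next to each other on chromosome 15, 11706 bases apart.

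Frizzled receptors were below 0 for 7 of 9 genes in each genotype, with a median log2 difference of −0.31 in wild type and −0.20 in the knockout. The main edgeR model called none in a single genotype. Fzd5 was at 42.4, 29.6 and 35.98 CPM in wild type with PBS and at 31.1, 32.1 and 24.4 CPM with ethanol. The corresponding knockout values were 42.9, 37.3 and 41.0 CPM with PBS and 31.6, 31.2 and 27.5 CPM with ethanol. The knockout groups were apart, and the wild-type groups overlapped through library 8. The log2 fold change was −0.30 in wild type (SE 0.13, adjusted p = 0.2967) and −0.42 in the knockout (SE 0.13, adjusted p = 0.1314). The knockout difference was called by DESeq2 (adjusted p = 0.04834), and by edgeR with the 2 groups alone (adjusted p = 0.009409), with the muscle covariate (adjusted p = 0.03668) and without libraries 8, 9 and 12 (adjusted p = 0.008988). Averaged it was −0.36 (SE 0.094, adjusted p = 0.0318), kept in 14 of 22 alternatives. The call was lost without libraries 6 and 12 (adjusted p = 0.09618) and without library 1, 3, 4, 5, 6, 7 or 9 (adjusted p from 0.05057 to 0.07913).

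Fzd9, a Frizzled known for a role in osteoblasts, was at 2.01, 3.38 and 5.70 CPM in wild type with PBS and at 0.876, 2.21 and 3.00 CPM with ethanol. It was at 2.60, 4.45 and 3.51 CPM in the knockout with PBS and at 1.17, 1.77 and 0.949 CPM with ethanol. The knockout groups were apart, and the wild-type groups overlapped widely. Its averaged log2 fold change of −1.16 (SE 0.33, adjusted p = 0.04718) held in 6 of 21 alternatives, and of the single libraries only 7 and 12 could be left out without losing it. The difference was −0.87 in wild type (adjusted p = 0.395) and −1.45 in the knockout (adjusted p = 0.1468). The knockout difference of Fzd9 was called by DESeq2 (adjusted p = 0.03606), and by edgeR with the 2 groups alone (adjusted p = 0.01378), with the muscle covariate (adjusted p = 0.006746) and without libraries 8, 9 and 12 (adjusted p = 0.04576). Without those 3 libraries, with library 7 alone for wild-type PBS, the wild-type difference was −0.37 and the averaged one −0.91, not called. Without libraries 6 and 12 the averaged one was −1.26 (adjusted p = 0.07562).

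Fzd7, the most abundant Frizzled per length, was at 40.5, 30.4 and 41.7 CPM in wild type with PBS and at 21.9, 30.4 and 28.8 CPM with ethanol. Libraries 8 and 11 nearly met, at 30.43 and 30.38 CPM. The log2 difference was −0.48 (SE 0.16, adjusted p = 0.1663). Its knockout values, 29.2, 31.6 and 28.1 CPM with PBS and 27.02, 29.2 and 20.99 CPM with ethanol, overlapped, and the difference there was −0.20 (SE 0.16, adjusted p = 0.5991). Fzd2 was at 3.30, 3.08 and 3.43 CPM in wild type with PBS and at 1.75, 2.16 and 2.42 CPM with ethanol, groups that did not overlap. Its log2 difference of −0.63 (SE 0.25) did not pass (adjusted p = 0.2327).

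The co-receptors Lrp4, Lrp5 and Lrp6 gave 0 calls in the main edgeR model. Lrp4 was at 123, 99.6 and 112 CPM in wild type with PBS and at 137, 156 and 122 CPM with ethanol. The knockout libraries were at 110, 123 and 130 CPM with PBS and at 140, 165 and 125 CPM with ethanol. It was higher on average after ethanol in both genotypes, with overlapping groups, with log2 differences of 0.31 in wild type (SE 0.12, adjusted p = 0.2367) and 0.24 in the knockout (SE 0.12, adjusted p = 0.3577). Averaged, Lrp4 was at 0.27 (SE 0.085, adjusted p = 0.06194) in edgeR, and DESeq2 called it. Lrp5 and Lrp6, which signal together with Frizzleds, varied over the 12 libraries by a factor of 1.32 and 1.30 between the highest and the lowest. With ethanol Lrp5 differed by −0.13 in wild type (SE 0.075) and −0.17 in the knockout (SE 0.075, adjusted p = 0.2881). Its average was −0.15 (SE 0.053, adjusted p = 0.09919). Lrp6 differed by 0.048 (SE 0.08) and 0.10 (SE 0.08, adjusted p = 0.5994), with an average of 0.075 (SE 0.057, adjusted p = 0.4503).

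Secreted inhibitors gave 1 call in the main edgeR model, in the averaged ethanol effect, for Frzb, a Frizzled-related protein that binds Wnts. It was at 3.02, 4.18 and 5.37 CPM in wild type with PBS and at 3.18, 2.77 and 2.58 CPM with ethanol. Its knockout values were 4.09, 4.97 and 3.68 CPM with PBS and 2.80, 2.94 and 1.42 CPM with ethanol. The knockout groups were apart, and library 7 put the wild-type groups in overlap. Frzb differed by −0.55 in wild type (SE 0.27, adjusted p = 0.357) and −0.83 in the knockout (SE 0.27, adjusted p = 0.1456). The averaged fall of −0.69 (SE 0.19, adjusted p = 0.04123) held in 9 of 21 alternatives. Without libraries 8, 9 and 12, with library 7 alone for wild-type PBS, the wild-type value was −0.006 and the averaged value −0.42, not called. Without libraries 6 and 12 the averaged call was lost (adjusted p = 0.08991). Of the single libraries only 5 and 7 could be left out without losing the call.

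Dkk1, the osteocyte-rich Lrp5 and Lrp6 blocker, was at 149, 77.4 and 93.9 CPM in wild type with PBS and at 58.3, 54.6 and 69.8 CPM with ethanol. Its knockout libraries were at 76.3, 82.6 and 74.4 CPM with PBS and at 62.5, 80.7 and 32.0 CPM with ethanol. The wild-type groups were apart, with library 7 the highest of all 12, and the knockout groups overlapped. Neither difference passed: −0.81 in wild type (SE 0.33, adjusted p = 0.2676) and −0.41 in the knockout (SE 0.33, adjusted p = 0.6113). Without libraries 8, 9 and 12 the wild-type value was −1.38, with library 7, the highest of all 12, alone for PBS. DESeq2 called Dkk1 in the averaged effect. Wif1, the most abundant inhibitor per length, was at 162, 152 and 136 CPM in wild type with PBS and at 133, 122 and 119 CPM with ethanol. Among knockout libraries it was at 135, 156 and 167 CPM with PBS and at 121, 162 and 92.2 CPM with ethanol. Its log2 difference was −0.27 (SE 0.17, adjusted p = 0.4739) and −0.29 (SE 0.17, adjusted p = 0.4431). The 9 inhibitors had a median of −0.27 in wild type and 0.048 in the knockout.

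The RNA of β-catenin moved little in size, and its protein was not measured. Ctnnb1 (ENSMUSG00000006932, chromosome 9, 120929216 to 120960507, + strand) was at 516, 501 and 515 CPM in wild type with PBS and at 454, 442 and 416 CPM with ethanol. The knockout libraries gave 526, 537 and 551 CPM with PBS and 447, 461 and 420 CPM with ethanol. All 6 ethanol libraries were below all 6 PBS libraries. The log2 fold change was −0.22 in wild type (SE 0.058, adjusted p = 0.08555) and −0.28 in the knockout (SE 0.058, adjusted p = 0.03355). DESeq2 called the wild-type difference (adjusted p = 0.001958), the only 1 of 23 alternatives to do so. The knockout call was lost in 9 of 23 alternatives, among them leaving out any 1 of the 6 knockout libraries (adjusted p from 0.05494 to 0.158) or library 11 (adjusted p = 0.05216). Without libraries 6 and 12 the adjusted p was 0.1001. Averaged it was −0.25 (SE 0.041, adjusted p = 0.003896), kept in each of 22 alternatives. An exon of Ctnnb1 overlaps Ulk4 on the other strand by 759 bases. Whether counting used strand was not stated, and Ulk4 had a mean of 14.8 counts.

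The partners and feedback genes of β-catenin gave 0 calls in the main edgeR model. Tcf7, Nkd1 and Nkd2 had an unadjusted p under 0.05 there in the knockout. DESeq2 called Tcf7 and Nkd2 in the knockout and in the average. Tcf7 was at 16.6, 17.2 and 20.4 CPM in wild type with PBS and at 17.1, 16.3 and 9.32 CPM with ethanol. In Cat −/− libraries it was at 21.5, 21.3 and 22.1 CPM with PBS and at 13.3, 16.8 and 10.2 CPM with ethanol, so the knockout groups were apart. The log2 difference was −0.34 in wild type (SE 0.22, adjusted p = 0.489) and −0.69 in the knockout (SE 0.22, adjusted p = 0.1375). The knockout difference of Tcf7 was called in 4 of 23 alternatives. Among them were DESeq2 (adjusted p = 0.03133), and edgeR with the 2 groups alone (adjusted p = 0.04227) and without library 12 (adjusted p = 0.03194). Without libraries 8, 9 and 12, the libraries rich in muscle genes, the wild-type value was 0.022, with library 7 alone for PBS. The knockout difference stayed at −0.69.

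Lef1 was at 4.67, 4.03 and 5.93 CPM in wild type with PBS and at 5.44, 5.49 and 2.69 CPM with ethanol. Its knockout libraries were at 6.44, 6.08 and 7.44 CPM with PBS and at 5.94, 5.71 and 4.97 CPM with ethanol. The wild-type difference of −0.099 (SE 0.24) turned to 0.17 without library 12, and the knockout difference was −0.26 (SE 0.23). Axin2, a feedback inhibitor widely read as a target of canonical signalling, was at 4.15, 5.12 and 6.44 CPM in wild type with PBS and at 6.32, 4.93 and 6.69 CPM with ethanol. In Cat −/− libraries it was at 5.61, 6.25 and 5.17 CPM with PBS and at 5.31, 5.59 and 4.34 CPM with ethanol. Its log2 difference was 0.19 (95% interval −0.20 to 0.59) and −0.16 (−0.55 to 0.23), and the groups overlapped in both genotypes. Nkd2, a feedback inhibitor that acts on Dishevelled, was at 14.3, 14.3 and 18.9 CPM in wild type with PBS and at 14.0, 17.8 and 8.58 CPM with ethanol. It was at 19.8, 19.8 and 21.8 CPM in the knockout with PBS and at 12.3, 15.04 and 7.78 CPM with ethanol. The difference was −0.23 (SE 0.27, adjusted p = 0.7396) and −0.81 (SE 0.27, adjusted p = 0.1648).

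**Figure D3:**
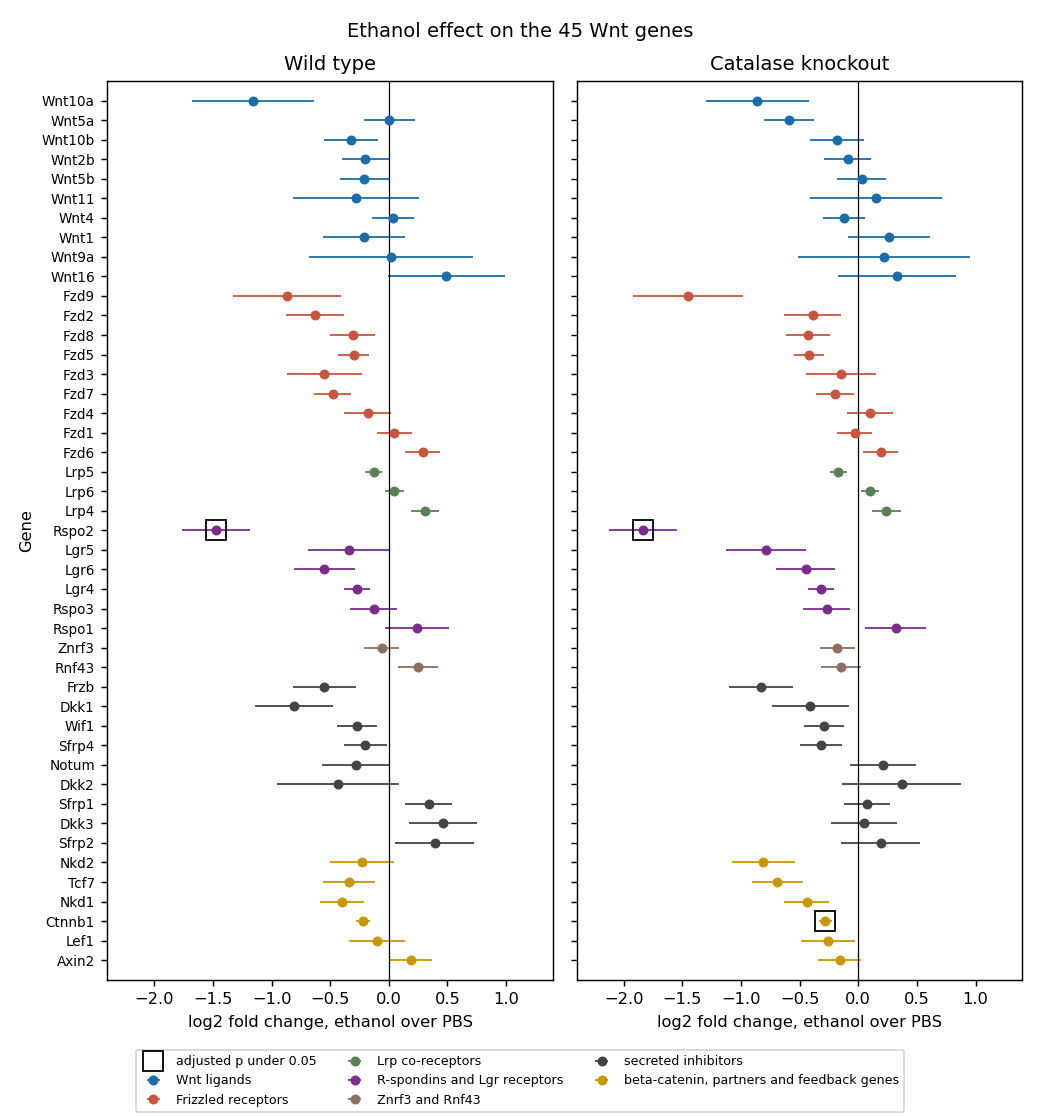
Log2 fold change of ethanol over PBS for the 45 genes in wild type (left) and in the catalase knockout (right), grouped and coloured by role, with bars of 1 SE and a square around each gene with an adjusted p under 0.05. Rspo2 carries a square in both panels (−1.47 and −1.84) and Ctnnb1 in the knockout (−0.28), while 31 and 30 of 45 points lie below 0.

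Counted over the set, 31 of 45 genes were below 0 in wild type (68.9%, against 53.7% of all genes) and 30 of 45 in the knockout (66.7%, against 50.0%). These counts were the same with RLE or upper-quartile factors and with DESeq2's size factors. The median log2 difference was −0.21 and −0.18, where that of all genes was −0.018 and 0.000. At an unadjusted p under 0.05, 8 were lower and 1 higher in wild type (8.98% and 7.03% of all genes), and 13 were lower and 0 higher in the knockout (8.16% and 8.25%). The 1 that was higher was Lrp4. Groups did not overlap for 8 lower genes in wild type (9.06% of all genes) and 14 in the knockout (16.0%). Fzd6 was above without overlap in wild type (7.32%), and Fzd4 and Lrp6 in the knockout (16.3%). Ctnnb1, Lgr4 and Rspo2 were apart and lower in both genotypes, 3 of 45 against 5.46% of all genes, and 0 were apart and higher in both (4.16%). No gene of the set was apart in opposite directions (0.160%).

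**Figure D4:**
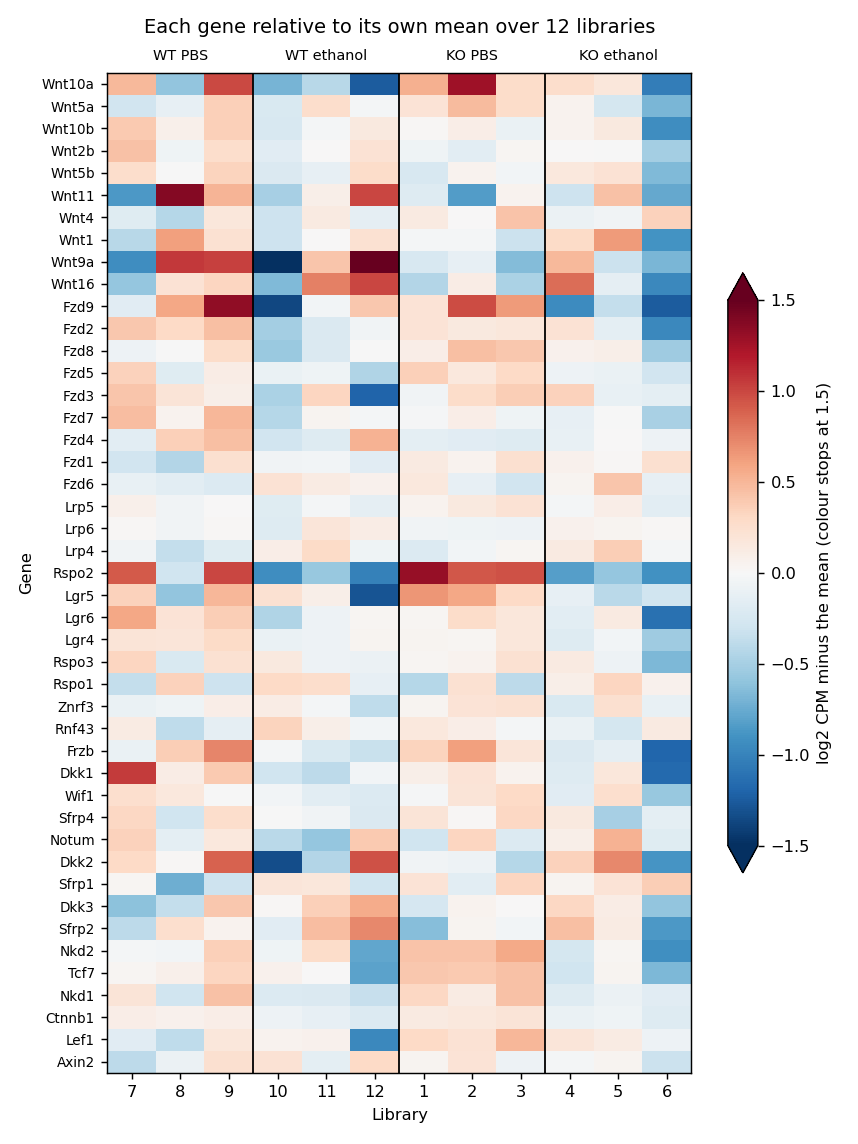
Heat map of the 45 genes (rows, ordered by role) in the 12 libraries (columns, by group), coloured by log2 CPM minus the gene's own mean over the 12 libraries, red above and blue below, with the colour stopping at 1.5. Library 6 is the bluest column, with the lowest value of 16 genes and a median deviation of −0.53, and Rspo2 is blue in each ethanol library.

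Single libraries carried part of this pattern. Library 6 held the lowest value of 16 genes, library 12 of 10 and library 10 of 7, and library 12 also held the highest value of 7. The median deviation of the 45 genes from their own means was −0.53 in library 6 and between −0.18 and 0.27 in the other 11. Left without libraries 6 and 12, the set had 0 calls in wild type and 0 in the knockout, with Rspo2 at an adjusted p of 0.1046 and 0.05697. That alternative leaves 2 ethanol libraries per genotype. Its averaged effect had 6 calls, of which Rspo2, Ctnnb1 and Lgr4 were also called with all libraries, Lgr6, Tcf7 and the higher Lrp4 were added, and Frzb, Fzd5 and Fzd9 were lost.

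Markers of bone cells and of some other cells were read in the same ethanol comparisons. Of 12 skeletal muscle genes 11 were below 0 in wild type and 12 in the knockout, with 0 called. The summed muscle level overlapped in both genotypes. It was 2917 to 33660 CPM with PBS and 1191 to 35149 CPM with ethanol in wild type. In the knockout it was 2876 to 11276 CPM and 5693 to 7479 CPM. Of 6 endothelial genes 6 and 4 were below 0, and of 6 macrophage genes 1 and 3, with 0 called in either list. The summed level of the osteoblast list was 25352 to 32263 CPM in wild type with PBS and 13169 to 25636 CPM with ethanol. In the knockout it was 36154 to 43664 CPM with PBS and 12351 to 26257 CPM with ethanol. All 12 osteoblast genes were below 0 in both ethanol comparisons (median −0.53 and −0.96), of which 0 and 3 were called. The osteocyte list summed to 3282 to 4762 CPM and 2288 to 3290 CPM in wild type, and to 2850 to 3288 CPM and 1802 to 3427 CPM in the knockout (PBS and ethanol). The osteoclast list had 10 of 10 genes above 0 in wild type (median 0.47, 1 called) and 9 of 10 in the knockout (median 0.09, 1 called). Of 7 chondrocyte markers 4 were below 0 in wild type and 5 in the knockout, and Matn3 was at 0 in a library. In bulk RNA, fewer cells of a type and less RNA per cell cannot be told apart, and the part of these markers in the fall of Rspo2 and the other Wnt genes was not tested.

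**Figure D5:**
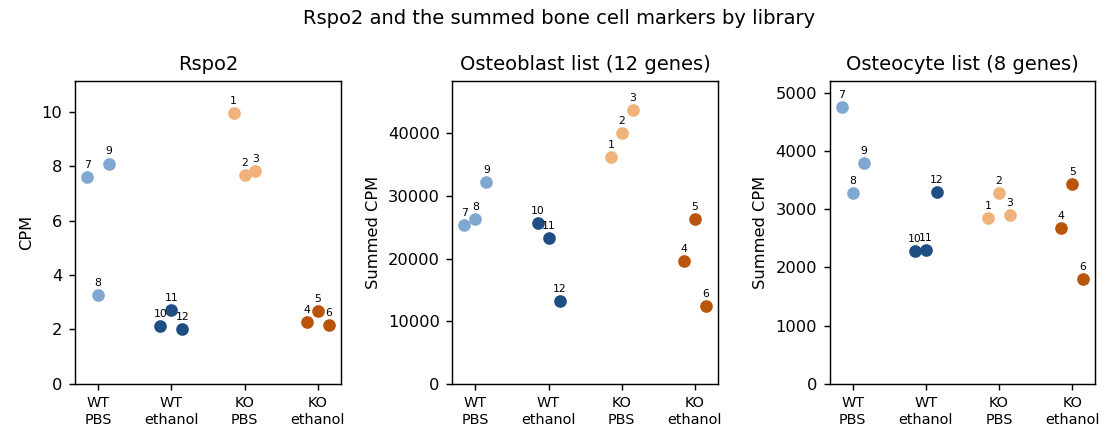
CPM of Rspo2 (left) beside the summed CPM of the osteoblast list (middle) and the osteocyte list (right), with 1 numbered point per library and linear axes from 0. The ethanol libraries lie below the PBS libraries of their genotype for Rspo2 and for the osteoblast sum in the knockout, and library 10 (25636 CPM) overlaps the wild-type PBS libraries in the osteoblast sum.

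Loss of catalase was then read under each gavage. Under PBS 0 of the 45 genes were called, as were 0.0110% of all genes, and at an unadjusted p under 0.05 there was 1 member, Sfrp1 (7.43% of all genes). Sfrp1, a Wnt-binding inhibitor, was at 20.4, 15.9 and 22.1 CPM in the knockout and at 18.1, 10.6 and 14.3 CPM in wild type, with overlapping groups. Its log2 difference, knockout over wild type, was 0.44 (SE 0.20, adjusted p = 0.6051). The other 3 genes with the smallest p were Fzd7 (−0.34, SE 0.16), Fzd4 (−0.41, SE 0.20) and Lef1 (0.45, SE 0.24), each at the same adjusted p of 0.6051. Fzd4 was at 33.5, 32.9 and 32.4 CPM in the knockout and at 33.1, 47.5 and 50.4 CPM in wild type, where libraries 8 and 9 were high. Without libraries 8, 9 and 12 the difference was −0.008 (SE 0.08) for Fzd4 and 0.10 (SE 0.17) for Sfrp1, with library 7 alone for wild type. Lef1 was higher without overlap in the knockout, as were Ctnnb1, Nkd2 and Tcf7 (8.98% of all genes), and Dkk2, Fzd2 and Lgr4 were lower without overlap (5.16%).

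Under ethanol 0 of 45 were called between genotypes (0.0110% of all genes), with 0 at an unadjusted p under 0.05 (5.78%). The smallest p-values were those of Lgr4 (−0.20, SE 0.11), Fzd1 (0.20, SE 0.15), Fzd9 (−0.64, SE 0.48) and Wnt5a (−0.29, SE 0.22), all at an adjusted p of 0.8201. Fzd1 was at 14.7, 14.2 and 16.5 CPM in the knockout and at 13.5, 13.7 and 12.4 CPM in wild type, and with Nkd1 it was one of the pair that was higher without overlap (7.12%). Averaged over the gavages 0 were called (0.0110%), and Lgr4 (−0.17) and Fzd1 (0.24) had an unadjusted p under 0.05 (14.3% of all genes). DESeq2 and limma-voom also called 0 members in the knockout comparisons under PBS and under ethanol and in the average. DESeq2 gave an adjusted p to 14286 genes under ethanol and to only 5133 in the average. Its 0 there says nothing of members without one.

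The interaction, the ethanol effect in the knockout minus that in wild type, gave 0 calls among the 45 and 0 at an unadjusted p under 0.05, where 0 and 1.98% of all genes had them. DESeq2 and limma-voom called 0 members there too. The smallest p-values were 0.07218 for Wnt5a (−0.60, SE 0.30), 0.1228 for Rnf43 (−0.40, SE 0.24), 0.1643 for Nkd2 (−0.58, SE 0.38) and 0.1925 for Axin2 (−0.35, SE 0.25). Rnf43 was at 3.95, 2.78 and 3.29 CPM in wild type with PBS and at 4.56, 3.85 and 3.53 CPM with ethanol. Its knockout libraries were at 4.05, 3.89 and 3.55 CPM with PBS and at 3.38, 3.03 and 3.98 CPM with ethanol, and the groups overlapped in both genotypes. The 95% interval of the interaction was −1.26 to 0.06 for Wnt5a and −0.24 to 0.12 for Ctnnb1, so that differences between genotypes of more than 0.24 on the log2 scale lay outside the interval for Ctnnb1.

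Other genes of the pathway were taken from lists of Wnt secretion, non-canonical co-receptors, further modulators, intracellular members and targets, 63 symbols of which 59 were tested. In wild type 0 of the 59 passed with ethanol (edgeR), where 0.556% of all genes rose and 0.705% fell, and 9 had an unadjusted p under 0.05 (16.0% of all genes). In the knockout 1 rose and 1 fell (0.964% and 0.903% of all genes). Amer1, a scaffold of the β-catenin destruction complex, rose with a log2 fold change of 0.32 (SE 0.07, adjusted p = 0.04282), which held in 10 of 23 alternatives and was lost without libraries 6 and 12 (adjusted p = 0.07437). Ccnd1, the cell cycle gene for cyclin D1 and a known target of β-catenin among other inputs, fell, with a log2 fold change of −0.75 (SE 0.12, adjusted p = 0.01131), a call lost without library 1, 2 or 6 (adjusted p from 0.05572 to 0.06191). It was at 38.4, 37.9 and 36.2 CPM in the knockout with PBS and at 24.7, 22.2 and 19.9 CPM with ethanol. In wild type it was at 33.4, 27.5 and 35.3 CPM with PBS and at 23.0, 25.0 and 19.2 CPM with ethanol, a difference of −0.52 (SE 0.12) that did not pass (adjusted p = 0.05732). The wild-type difference of Ccnd1 was called in 3 of 23 alternatives. These were DESeq2 (adjusted p = 0.00475), and edgeR without the low-count filter (adjusted p = 0.02486) and with the muscle covariate (adjusted p = 0.03339). The groups of Ccnd1 were apart in both genotypes.

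Averaged over the genotypes 2 of the 59 rose and 5 fell, against 5.02% and 5.81% of all genes. The risers were Amer1 (0.28, adjusted p = 0.006182) and the planar polarity gene Prickle2 (0.51, adjusted p = 0.01574). Ccnd1 fell by 0.64 (adjusted p = 0.001451), the Wnt co-receptor Ryk by 0.37 (adjusted p = 0.01557) and the formin gene Daam2 by 0.35 (adjusted p = 0.02609). The osteoblast transcription factor gene Sp7 fell by 0.76 (adjusted p = 0.02676) and the adhesion receptor gene Cd44 by 0.21 (adjusted p = 0.04303). Sp7 also stands in the osteoblast list. Cd44 held in 9 of 22 alternatives, Daam2 and Sp7 in 16 each, and Ryk was lost without libraries 8, 9 and 12 (adjusted p = 0.08497). Sp7 was lost without the same libraries (adjusted p = 0.1556), and Daam2 (adjusted p = 0.07448) and Cd44 (adjusted p = 0.0868) were lost without libraries 6 and 12. Of the 11 tested target genes 7 were below 0 in wild type and 11 in the knockout, with medians of −0.22 and −0.23. The 28 intracellular members had medians of −0.008 and 0.018, close to those of all genes. Loss of catalase called 0 of the 59 under PBS and 0 under ethanol in edgeR, with 5 and 2 at an unadjusted p under 0.05 (7.43% and 5.78% of all genes), and the interaction called 0, with 0 at that threshold (1.98%).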

How the data were processed

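Bulk RNA was sequenced from 12 libraries of femoral shaft. The authors deposited raw counts, whole numbers for 49315 Ensembl genes (the values show no normalization). Per the submitters' processing notes, reads were trimmed and aligned with tools that include Trimmomatic 0.36 and STAR 2.5.2b, on GRCm38, and counting tools named are featureCounts and Subread 1.5.2. Settings, use of strand and handling of multi-mapping reads were not stated. The authors also deposited a normalized signal, in which each library's counts are divided by 1 factor, for 17408 genes. It set the members and served in 1 alternative only.

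The filterByExpr function (count of at least 10, total of at least 15) left 18161 genes, which were scaled by TMM (factors 0.908 to 1.05). One edgeR 4.0.16 quasi-likelihood model (robust, R 4.3.3) held 1 coefficient per group over all 12 libraries, with 8 residual degrees of freedom. P-values were adjusted by Benjamini-Hochberg over all genes, and a gene was called under 0.05. The model gave the ethanol effect per genotype, the knockout effect per gavage, their interaction and both averages. The standard error (SE) is the log2 fold change divided by the square root of F, and 95% intervals use the t quantile of the model's degrees of freedom. CPM uses the TMM factors, and CPM per kb the union of exons in GENCODE M21. The fit was tested on simulated counts. Library totals of 19950222 to 28789308 counts and 3 pools per group limit the precision.

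Full values are given for genes called in any comparison, the 4 with the smallest p in each comparison except the averaged knockout effect, the highest gene per length of each role, and Axin2, Lef1, Tcf7 and Ctnnb1. Dkk1, Lgr5, Lgr6, Wnt10a and others outside this rule were named after their values were seen. Other pathway genes are named if called or among the 3 smallest p. The members and all lists were chosen with earlier results of these data known. Alternatives changed the scaling (RLE, upper quartile), the filter (none, or 5 CPM in 3 libraries), the test (DESeq2 1.42.0, limma-voom, or limma-trend with limma 3.58.1, on the log2 values of the deposited signal after adding 1), the samples (2 groups alone, without libraries 8, 9 and 12, or without each library in turn) and the model (muscle list as covariate). Leaving out libraries 6 and 12 was chosen after seeing the data.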

Additional observations from a re-analysis of the deposited data

How the results depend on the processing

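No paired analysis was run, because the libraries carry running numbers from 1 to 12 that name no pairs. Whether pools were paired by cage or day was not stated. The number of Wnt genes called with ethanol in wild type (1) was 2 with DESeq2, and 0 with limma-voom, with the 2 groups alone and without libraries 6 and 12. Leaving out 1 library gave 0 to 1. In the knockout (2) it was 1 without the low-count filter, 6 with DESeq2, with the 2 groups alone and without libraries 8, 9 and 12, 4 with the muscle covariate, and 0 without libraries 6 and 12. Leaving out 1 library gave 0 to 3. The averaged ethanol effect (6) had 12 calls with DESeq2, which added Dkk1, Fzd7, Lgr6, Lrp4, Nkd2 and Tcf7, and 3 without libraries 8, 9 and 12. Leaving out 1 library gave 2 to 7. The 3 knockout comparisons and the interaction had 0 calls in every alternative run. In the averaged knockout effect DESeq2 gave an adjusted p to only 5133 genes, so its 0 there covers only members among them. Counts over all genes moved too: with ethanol in wild type 101 genes were higher and 128 lower, against 335 and 396 with DESeq2, 66 and 86 with limma-voom, 3 and 1 with the 2 groups alone, and 12 and 25 without libraries 8, 9 and 12. In the knockout 175 were higher and 164 lower, against 451 and 535 with DESeq2, 863 and 814 with the 2 groups alone, 714 and 628 without libraries 8, 9 and 12, and 68 and 108 without libraries 6 and 12. Of the values of named genes, 1406 kept direction and side of the threshold, 110 lost a call, 19 gained one and 21 changed sign. Those that changed sign were small and uncalled. In wild type, without libraries 8, 9 and 12 Lef1 was 0.24, Tcf7 0.022, Nkd2 0.16 and Znrf3 0.16, and without libraries 6 and 12 Lef1 was 0.16, Nkd2 0.006 and Znrf3 0.065. In the knockout Wnt5b was −0.025 with limma-voom and −0.018 with limma-trend. Leaving out 1 library, Lef1 ran from −0.26 to 0.17, Lgr5 from −0.59 to 0.007, Nkd2 from −0.48 to 0.014, Wnt5a from −0.14 to 0.22 and Znrf3 from −0.17 to 0.071 in wild type, and Wnt5b from −0.12 to 0.26 in the knockout. The cause was not tested. Wnt10a (3 to 26 counts), Rspo1 (17 to 33) and Fzd3 (9 to 40) had the lowest mean counts, and the SE of the wild-type difference was largest for Wnt9a (0.70), Wnt11 (0.54), Wnt10a (0.52), Dkk2 (0.52) and Wnt16 (0.50).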
